A study of Mus musculus with 2 samples.

Results

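The genes described here encode the cargo, the processing machinery and a membrane protein of dense-core granules: the granins Chga, Chgb, Scg2, Scg3 and Vgf, the enzymes Cpe and Pcsk2, the convertase partners Pcsk1n and Scg5, and the membrane protein Ptprn. They were taken by name, as the rows that the authors' tables gave to these annotated genes. No measured value entered this rule, but earlier results of these data were known when the genes were chosen. All 10 had reads in both libraries, out of 18534 annotated mouse genes with at least 1 read in either. The tissue was left cerebral cortex from mice of the B6CASTF1/J hybrid, offspring of a cross between a laboratory strain and a castaneus strain, at an age of 18 to 20 months. The labels named no treatment, no induced mutation and no second group, so the measurements are a description of 1 group. The 2 libraries, biological replicates 1 and 2, were each made from 2 µg of total RNA with spike-in RNAs added, and were sequenced as long complementary DNA reads. Both carried the same donor entry, and nothing in the labels said whether the RNA came from separate animals. A p-value therefore compares these libraries only and covers counting error, and the spread between them may be technical. The sex was given as female in the characteristics and source name of the labels and as male in the description text.

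Dense-core granules store neuropeptides and hormones and release them on stimulation, more slowly than synaptic vesicles release classical transmitters. Granins are acidic proteins that aggregate in the trans-Golgi network, help to form the granule and are themselves cut into peptides. Prohormone convertases cut the stored precursors at pairs of basic residues, carboxypeptidase E trims the exposed basic residues, and small inhibitor and chaperone proteins hold the convertases in check until the granule matures.

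The libraries held 871524 reads in replicate 1 and 839150 in replicate 2. Reads on annotated genes were 774629 (88.9%) and 679147 (80.9%), and levels are given as CPM, read counts scaled to 1 fixed total of these reads per library. A long read was taken to stand for 1 complementary DNA molecule, so CPM is not divided by transcript length here. No molecular identifiers are stated, so a read may be a copy, and any effect of transcript length on the counts was not measured. Levels of different genes are therefore set side by side as reads. A gene with 0 reads could reach 3.87 CPM in replicate 1 and 4.42 CPM in replicate 2 by counting error alone, taking 3 counts as the limit. Models lying antisense to annotated genes took 8.87% of mouse reads in replicate 1 and 16.9% in replicate 2. Xist, the RNA of the inactive X chromosome, had 34 and 29 reads, and the Y-linked genes Ddx3y, Uty, Eif2s3y and Kdm5d had 0 reads in both libraries.

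The 10 genes together took 6697 reads in replicate 1 and 5838 in replicate 2. Their summed level was 8645 and 8596 CPM, a mean of 8621 ± 34.9 CPM (SD, n = 2), or 0.865% and 0.860% of reads on annotated genes. The sum was thus nearly equal in both libraries although single genes were not. Cpe alone made up 40.2% of this sum in replicate 1 and 42.6% in replicate 2, and Pcsk1n made up 21.9% and 21.6%. The median of the 10 mean levels was 457 CPM, against 48.1 CPM for the 9143 genes with at least 20 reads over both libraries.

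Among the granins, Chgb, chromogranin B, had 533 CPM in replicate 1 and 527 CPM in replicate 2. Scg2, the precursor of the peptide secretoneurin, had 434 and 334 CPM. Replicate 1 was higher for Scg2, and the counting intervals of 389 to 483 and 292 to 381 CPM did not overlap. Vgf, a peptide precursor first known as a gene induced by nerve growth factor, had 284 and 239 CPM. Chga, chromogranin A, had 303 and 156 CPM and was the granin whose libraries lay farthest apart. Scg3, which binds chromogranin A and the cholesterol-rich granule membrane, had 165 and 194 CPM and was the lowest of all 10 by mean level.

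Among the enzymes, Cpe, the carboxypeptidase that removes basic residues from cut precursors, had 3475 CPM in replicate 1 and 3659 CPM in replicate 2 and ranked 6 of 18534 genes by mean CPM. Pcsk2, the convertase PC2, had 266 and 294 CPM. Of the proteins that act on convertases, Pcsk1n, which encodes the PC1/3 inhibitor proSAAS, had 1894 and 1860 CPM. Scg5, which encodes the PC2 chaperone 7B2, had 762 and 783 CPM. The RNA of the chaperone was therefore read more often than that of its enzyme in both libraries. Ptprn, which encodes IA-2, a receptor-type tyrosine phosphatase homologue of the granule membrane that lacks phosphatase activity, had 529 and 549 CPM.

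In order of mean level and SD over both libraries (n = 2), Cpe stood at 3567 ± 130 CPM, Pcsk1n at 1877 ± 24.1 CPM and Scg5 at 772 ± 15.3 CPM. Ptprn followed at 539 ± 14.1 CPM and Chgb at 530 ± 4.26 CPM, and the ranges of these neighbours overlapped. Scg2 came next at 384 ± 70.4 CPM. Below it, Pcsk2 at 280 ± 20.2 CPM, Vgf at 261 ± 32.2 CPM, Chga at 230 ± 104 CPM and Scg3 at 180 ± 20.6 CPM each overlapped with the next in the order. The other neighbours in the order did not overlap. The members thus ranked between 6 (Cpe) and 1150 (Scg3) among all genes with reads. In bulk tissue, fewer cells that express a gene and less RNA in each of them cannot be told apart.

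**Figure D1:**
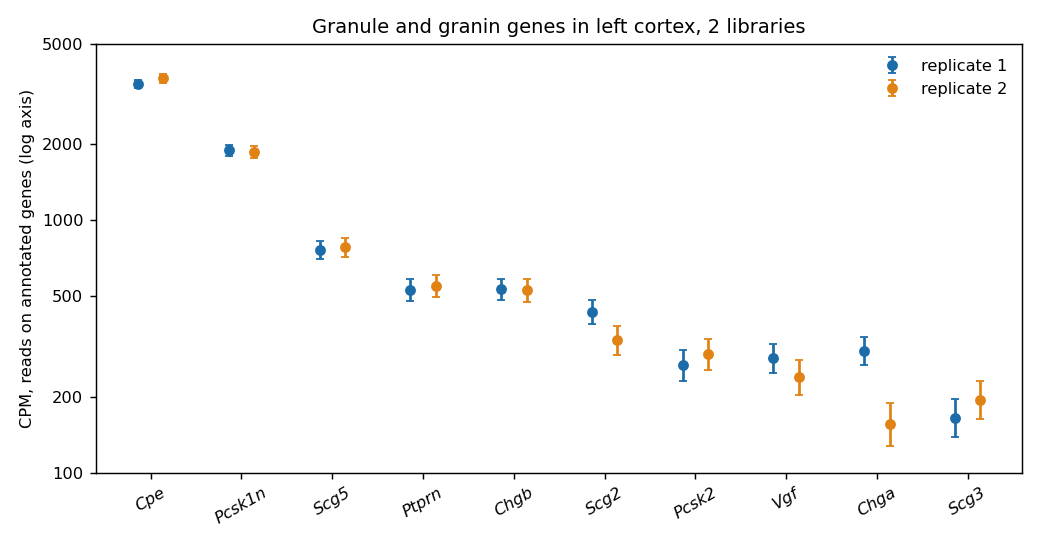
Level of each of the 10 genes in CPM on a log axis, ordered by mean level. Each point is 1 library, replicate 1 left of replicate 2, with its exact 95% Poisson interval, which covers counting error only. Chga is the gene whose points lie farthest apart, at 303 CPM in replicate 1 and 156 CPM in replicate 2, and Cpe is highest at 3475 and 3659 CPM.

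The libraries were compared gene by gene with a two-sided exact binomial test against the library totals, with p-values adjusted over all 9143 genes by the method of Benjamini and Hochberg. Chga was the member that passed, with 235 reads in replicate 1 and 106 in replicate 2, a log2 ratio of replicate 1 over replicate 2 of 0.95 on CPM + 1 (counting SE 0.17, adjusted p = 1.6e-06 in the exact test). It was 1 of 10 members called, against 1.99% of all tested genes called in either direction and 0.733% called higher in replicate 1. The members had more reads than most tested genes, and the test calls smaller differences where reads are many, so these shares do not stand for genes of like depth. Over all genes 182 were called, 67 higher and 115 lower in replicate 1, a split of 36.8% higher that became 48.4% of 188 genes with TMM scaling and 63.0% of 243 with DESeq2 size factors.

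Scg2, with 336 and 227 reads, had the next largest ratio at 0.37 (counting SE 0.12, adjusted p = 0.0868 in the exact test). It did pass under TMM scaling (log2 0.41, adjusted p = 0.0440) and with DESeq2 size factors (log2 0.45, adjusted p = 0.0160), so its call rests on the scaling. Vgf had a ratio of 0.25 (SE 0.15, adjusted p = 0.561 in the exact test), and the ratios of Pcsk1n and Chgb were 0.03 and 0.02. The other members had ratios below 0, at -0.23 for Scg3, -0.15 for Pcsk2, -0.07 for Cpe, -0.05 for Ptprn and -0.04 for Scg5, with adjusted p-values between 0.473 and 0.958 in the exact test. The signs were thus divided, 5 members higher in each library, but with DESeq2 size factors 8 were higher and 2 lower in replicate 1, since the small ratios of Cpe, Scg5 and Ptprn turned positive. The median of the members' log2 ratios was -0.01, beside -0.03 for all tested genes. The higher Chga reading in replicate 1 came with the larger share of reads on annotated genes and the smaller share of antisense models given above. Markers of cortical excitatory neurons, all 5 of them detected, summed to 1519 CPM in replicate 1 and 1394 CPM in replicate 2, and the 6 interneuron markers summed to 746 and 680 CPM. The 3 oligodendrocyte markers summed to 1852 and 1617 CPM. Among them Mbp, the gene of myelin basic protein, was the only cell type marker that passed, also higher in replicate 1 (1154 and 862 reads, log2 0.23, adjusted p = 0.0259 in the exact test). The part of these differences in the Chga result was not tested.

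**Figure D2:**
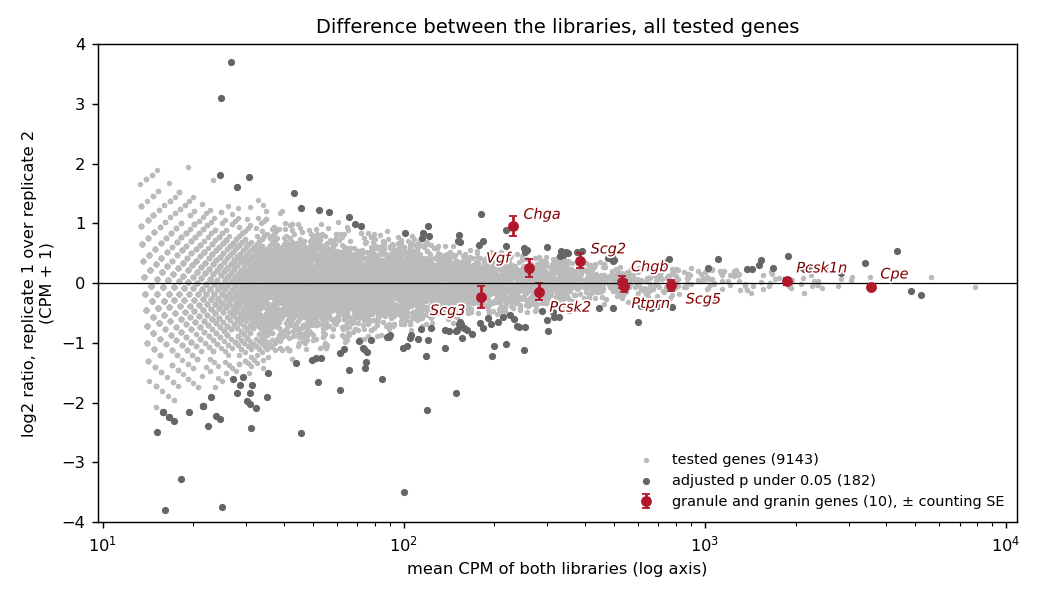
Log2 ratio of replicate 1 over replicate 2 on CPM + 1 against mean CPM on a log axis for the 9143 tested genes, with 13 genes beyond a ratio of 4 in either direction not drawn. Dark points are the 182 called genes, and red points with their counting SE are the 10 granule and granin genes. Chga at 0.95 lies above the grey cloud, and Scg2 at 0.37 lies at its upper edge.

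Of the granins, Scg2 was read in 2 main forms that differed by a piece of coding sequence. Scg2-201, with the whole second exon, took 177 reads (52.7%) in replicate 1 and 120 (52.9%) in replicate 2. Scg2-202, in which a segment inside that exon is spliced out, took 126 (37.5%) and 88 (38.8%). The segment lies at chr1:79435932-79436051 on the minus strand (mm10), within exon 2 of 2 of Scg2-201. It is 120 nt long and is wholly coding, so that its removal takes 40 codons and keeps the length a multiple of 3. Both forms are printed, with 30 bases on each side, because they show what the reads distinguish. They are GENCODE M21 transcript sequences (GRCm38, the same assembly as mm10), and the capitals mark the segment.
Scg2-201: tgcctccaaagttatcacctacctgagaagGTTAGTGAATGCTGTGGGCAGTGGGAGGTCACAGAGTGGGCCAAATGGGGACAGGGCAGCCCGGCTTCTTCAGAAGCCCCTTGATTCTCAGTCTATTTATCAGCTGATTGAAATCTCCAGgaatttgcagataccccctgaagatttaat
Scg2-202: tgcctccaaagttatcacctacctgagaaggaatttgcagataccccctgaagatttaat

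The Scg2 segment begins with GT and ends with AG, the bases at the ends of most introns, and its ends share 3 bases with the flanking exon. Counting every multi-exon read that reached it, the segment was spliced out in 131 of 309 reads of replicate 1 (42.4%, with a 95% Wilson interval from 37.0 to 48.0) and in 93 of 213 in replicate 2 (43.7%, 37.2 to 50.4). The mean was 43.0% ± 0.896 (SD, n = 2), and the libraries differed by far less than the width of either interval. Single-exon models of Scg2, in which no junction can be read, held 7.74% and 5.73% of its reads.

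Scg3 likewise had 2 annotated forms at like shares, Scg3-202 with 66 reads (51.6%) in replicate 1 and 65 (49.2%) in replicate 2, and Scg3-201 with 47 (36.7%) and 53 (40.2%). Their introns differ only at the 3′ end of exon 9 of 12, where Scg3-201 uses a later 5′ splice site and keeps 15 more nt, at chr9:75663193-75663207 on the minus strand (mm10). The added piece is coding and adds 5 codons. The 2 forms are printed across the junction of exons 9 and 10, from the same transcript sequences, with the 15 nt in capitals.
Scg3-201: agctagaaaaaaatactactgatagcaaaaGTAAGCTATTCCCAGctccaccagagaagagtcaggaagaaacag
Scg3-202: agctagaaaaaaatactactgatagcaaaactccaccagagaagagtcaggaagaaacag

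The Scg3 piece starts with GTAAG, where the earlier splice site of Scg3-202 lies. The longer exon was used in 55 of 126 reads in replicate 1 (43.7%, 35.3 to 52.4) and in 56 of 129 in replicate 2 (43.4%, 35.2 to 52.0), a mean of 43.5% ± 0.170 (SD, n = 2). Reads that skipped both exon 2 and exon 3 of Scg3 were few, 5 of 122 (4.10%) in replicate 1 and 6 of 128 (4.69%) in replicate 2. Of 7 annotated Scg3 transcripts, 2 had reads.

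Chga was read mostly as Chga-201, its 8-exon transcript, with 177 of 235 reads (75.3%) in replicate 1 and 76 of 106 (71.7%) in replicate 2. The first intron of Chga-201 was shown by 188 and 80 reads and the last by 215 and 96, so most reads of either library ran over nearly the whole transcript. Restricted to annotated transcripts, the Chga log2 ratio between the libraries was 0.96. The difference in Chga level was thus of like size in reads that held every junction of Chga-201. Shorter Chga chains of 3 exons took 9 and 7 reads, and 2-exon chains took 11 and 5.

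Chgb-201, with 5 exons, held 315 of 413 Chgb reads (76.3%) in replicate 1 and 270 of 358 (75.4%) in replicate 2. A shorter chain of Chgb held 82 reads (19.9%) and 72 (20.1%). It was spliced only over the last intron, and its model began in the long exon before the last. Where its single reads began is not shown, so a separate start was not measured. Its deposited model was 2094 nt long, against 2740 nt for Chgb-201. In the reads of Chgb the share with intron 3 removed was 79.2% and 77.9%, and the share with intron 4 removed was 99.3% and 98.3%. The drop in Chgb therefore fell at 1 exon, the one of 1766 nt that the shorter model starts with, and was of the same size in both libraries.

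Vgf stood apart from the other members in how its reads were classed. Vgf-201, with 2 exons, took 126 of 220 reads (57.3%) in replicate 1 and 94 of 162 (58.0%) in replicate 2, and single-exon genomic models took 71 (32.3%) and 52 (32.1%). In replicate 1 the single-exon model of Vgf was 2346 nt long and lay inside the last exon. In replicate 2 it was 3057 nt long and covered the intron of Vgf-201 as well. A model merges reads and need not carry the ends of each, so the files do not show how many of these reads kept the intron. Of reads joined to the last exon of Vgf, the first exon of Vgf-203 was used in 11 of 148 (7.43%) and in 6 of 109 (5.50%).

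Vgf was also the member with the largest share of unannotated splice junctions, 11.0% of its junction reads in replicate 1 and 16.7% in replicate 2, against at most 1.25% in any other member and library. These shares rest on few counts, 20 of 181 and 23 of 138, and a read counts once for each of its junctions. Vgf-201 has 1 intron and Ptprn-201 has 22, so the shares do not compare members by read. By read, models with an unannotated splice site held 11 of 220 in replicate 1 and 6 of 162 in replicate 2 for Vgf. The Wilson intervals were 2.81 to 8.73% and 1.71 to 7.84%. For Ptprn they held 20 of 410 (4.88%) and 19 of 373 (5.09%), shares within these intervals. In this class Vgf was not set apart from Ptprn. Reads with a junction upstream of the first exon of Vgf-201 numbered 10 in each library. Of these, 9 in replicate 1 and 6 in replicate 2 used the annotated junction of Vgf-204 between upstream exons. At least 1 unannotated upstream junction was present in 9 and 10 of them. There were 10 such junctions over both libraries, 2 of which had at least 5 reads in each. The first, chr5:137025373-137026369, had 7 and 5 reads, and the second, chr5:137028678-137030259, had 6 and 5 (plus strand, mm10).

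Among the processing enzymes, Cpe was read almost wholly as 1 transcript. Cpe-201, with 9 exons and 2117 nt, held 2466 of 2692 reads (91.6%) in replicate 1 and 2244 of 2485 (90.3%) in replicate 2. An 8-exon chain without the first exon held 143 (5.31%) and 158 (6.36%). Of 4 annotated Cpe transcripts the other 3 had no reads assigned. A rare form used a 5′ splice site 3 nt before the end of exon 5, at chr8:64609048-64609050 on the minus strand (mm10), and so lacked 1 codon. It is shown because it was the only unannotated junction of Cpe with at least 5 reads in each library. The capitals mark the 3 nt that the shorter form lacks, and the second line is joined from the same transcript sequence.
Cpe-201: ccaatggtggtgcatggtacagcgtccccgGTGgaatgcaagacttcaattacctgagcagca
shortened exon 5: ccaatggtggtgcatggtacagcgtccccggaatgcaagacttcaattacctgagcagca

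This Cpe form was used in 13 of 2661 reads in replicate 1 (0.489%, 0.286 to 0.834) and in 15 of 2458 in replicate 2 (0.610%, 0.370 to 1.00). The ends of the 3 nt share 2 bases with the exons around them. At this length the call of the form depends on how each read was aligned across the junction, which these tables do not show. Pcsk2-201, with 12 exons and 4723 nt, held 148 of 206 reads (71.8%) and 138 of 200 (69.0%). Single-exon models of Pcsk2 held 24 (11.7%) and 26 (13.0%), of which 23 and 25 lay on a model of the last exon. A 4-exon chain of Pcsk2 held 7 and 8. The share of Pcsk2 reads with the first intron removed was 74.3% and 71.5%, and 87.4% and 86.5% had the last intron removed.

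Of the proteins that act on convertases, Pcsk1n was read as Pcsk1n-201 in 1373 of 1467 reads (93.6%) in replicate 1 and 1187 of 1263 (94.0%) in replicate 2, the highest share of 1 transcript among the members. Genomic models of Pcsk1n held 47 reads (3.20%) and 34 (2.69%). Scg5-201, with 6 exons, held 446 of 590 Scg5 reads (75.6%) and 437 of 532 (82.1%), a difference that did not pass the test over all genes (Fisher's exact test, unadjusted p = 0.0085, adjusted p = 0.436). The rest of Scg5 was mostly a 4-exon chain with 72 reads (12.2%) and 39 (7.33%), and a 5-exon chain with 45 (7.63%) and 35 (6.58%). Both lacked exons at the 5′ end. Intron 2 of Scg5, which is 35309 nt long, was shown by 509 reads in replicate 1 and 484 in replicate 2, and intron 3 by 582 and 525.

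**Figure D3:**
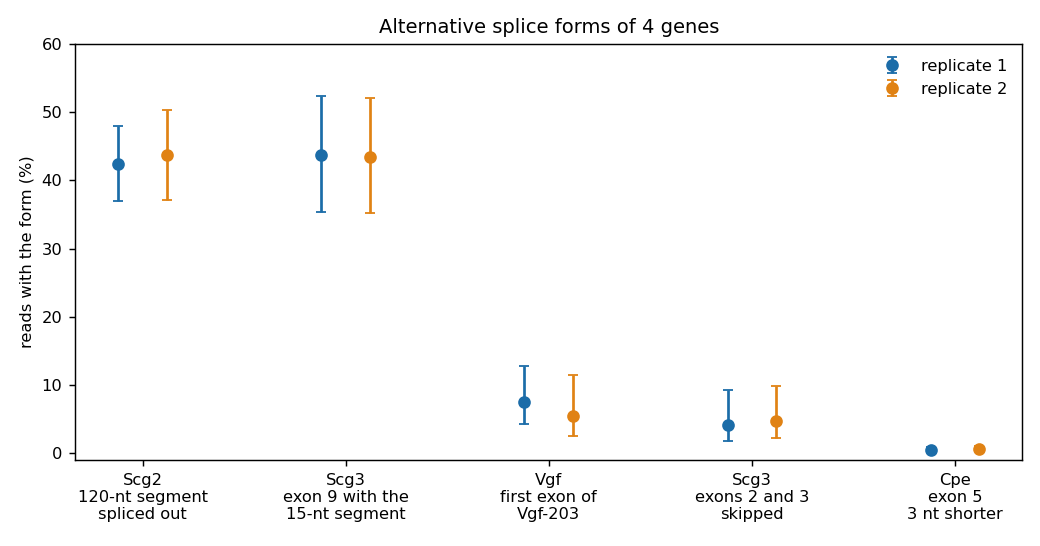
Percentage of reads with each of 5 alternative forms, replicate 1 left of replicate 2, with 95% Wilson intervals that cover counting error only. The Scg2 and Scg3 forms lie between 42.4% and 43.7% in all 4 points, while the Vgf, exon-skipping Scg3 and Cpe forms lie between 0.489% and 7.43%, and the intervals of the libraries overlap for every form.

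Ptprn, the granule membrane protein, was the member least often read in full and the one whose share of the major transcript differed between the libraries. Ptprn-201, its 23-exon transcript of 3554 nt, held 140 of 410 reads in replicate 1 (34.1%, Wilson interval from 29.7 to 38.9) and 74 of 373 in replicate 2 (19.8%, 16.1 to 24.2). The intervals did not overlap, and the difference passed Fisher's exact test over all 5961 genes with 20 reads in each library (adjusted p = 0.00577). It was the 1 member called of 10, against 0.168% of all tested genes (10 of 5961). Fisher's exact test also calls smaller differences where reads are many, so that share does not stand for genes of like depth. With incomplete splice matches and genomic models left out, the Ptprn difference was 10.7 points and did not pass (adjusted p = 0.941), on fewer reads. The level of Ptprn itself did not pass the test between the libraries.

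Most other Ptprn reads lay on chains that lacked exons at the 5′ end. These suffix chains held 45.9% of Ptprn reads in replicate 1 and 60.9% in replicate 2, against 8.07% and 8.76% of reads on all annotated genes. A 7-exon chain held 36 reads (8.78%) and 95 (25.5%), and in replicate 2 it was the most frequent Ptprn form. A 19-exon chain held 35 (8.54%) and 33 (8.85%), an 18-exon chain 25 (6.10%) and 17 (4.56%), an 11-exon chain 19 (4.63%) and 18 (4.83%), and a 10-exon chain 17 (4.15%) and 9 (2.41%). The 7-exon chain was thus the one with a marked gap between the libraries. In the deposited model it was 1451 nt long in both libraries, and its first exon was drawn over 377 nt at chr1:75252468-75252844 (minus strand, mm10), from exon 16 of Ptprn-201 through intron 16 to the end of exon 17.

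Read along Ptprn-201 from the 5′ end, the first intron was removed in 159 reads in replicate 1 and 94 in replicate 2, and the last in 373 and 338. The first intron was thus seen 42.6% and 27.8% as often as the last. In the other 7 members with 2 or more introns, this ratio was between 77.6% and 97.4% in replicate 1 and between 77.8% and 98.2% in replicate 2. The largest step in replicate 2 lay between intron 17, removed in 342 reads, and intron 16, removed in 225, a ratio of 65.8% (60.6 to 70.6). In replicate 1 the same step was between 372 and 322 reads, 86.6% (82.7 to 89.7). Of Ptprn reads that reached exon 2 from any first exon, 159 of 176 (90.3%) and 94 of 98 (95.9%) used the first exon of Ptprn-201. In all, Ptprn had 102 unannotated intron chains, 29 of them in both libraries. The tables hold no read ends other than those of the models, so where single Ptprn reads began was not measured here.

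**Figure D4:**
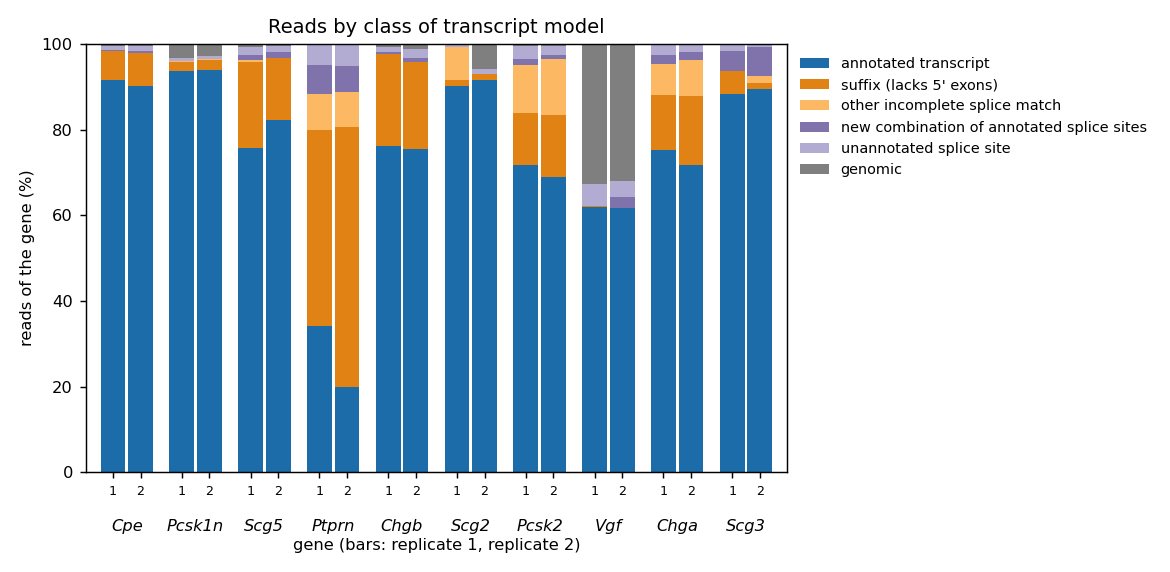
Reads of each gene by the class of their transcript model, in percent, with the left bar of each pair for replicate 1 and the right bar for replicate 2. Annotated transcripts hold 91.6% and 90.3% of Cpe reads but 34.1% and 19.8% of Ptprn reads, suffix models make up most of the rest of Ptprn, and genomic models are prominent in Vgf.

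**Figure D5:**
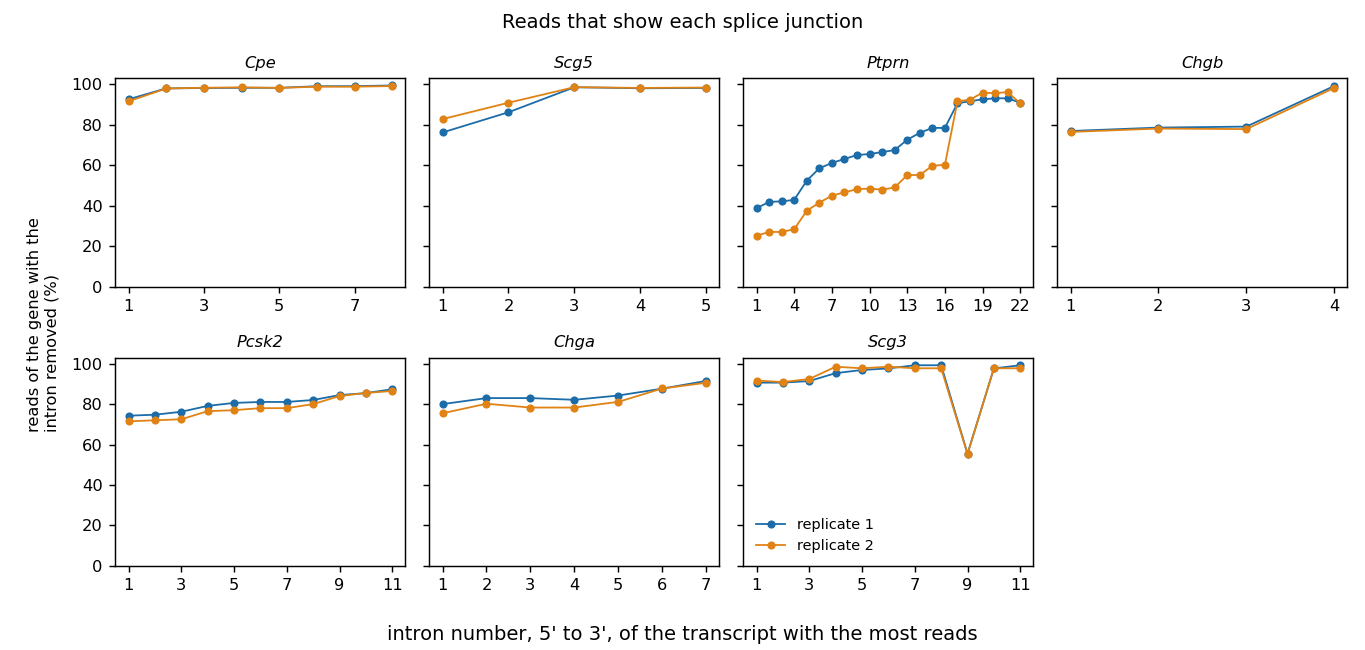
Percentage of a gene's reads in which each intron was removed, numbered from the 5′ end of the transcript with the most reads, for the 7 genes with at least 4 introns. Cpe stays above 90% throughout, Ptprn climbs from the first intron at 38.8% in replicate 1 and 25.2% in replicate 2, and the dip of Scg3 at intron 9 is the alternative 5′ splice site.

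No member had a cassette exon with 20 reads in each library. There were 18 candidates in the members, of which the best covered had 15 reads, and they were not tested. Over all genes, 1 of 1519 cassette exons was called (0.0658%) in Fisher's exact test, with 55 at an unadjusted p under 0.05.

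Genes of the wider pathway were taken from lists whose names were set together with the members. Of 13 other convertases and processing enzymes, 12 had reads and 5 had enough to be tested. The most abundant were Pam, the enzyme that amidates peptide ends, with 85 and 85 reads and a mean of 117 ± 10.9 CPM (SD, n = 2), the protease gene Ctsl with 107 ± 3.67 CPM and the site-1 protease gene Mbtps1 with 50.1 ± 2.15 CPM. Pcsk1, the partner convertase of Pcsk2, had 24 and 21 reads and a mean of 31.0 ± 0.0434 CPM, and is named here after its values were seen. Its inhibitor gene Pcsk1n, given above, was read far more often. None of the 5 passed the test between the libraries, and their median log2 ratio was 0.00 beside -0.03 for all tested genes.

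Of 15 genes for granule membrane and biogenesis, 13 were tested and none passed, with a median log2 ratio of -0.19. Rab2a, a small GTPase of the secretory pathway, was highest at 774 ± 13.7 CPM (SD, n = 2), followed by Vps52, a subunit of endosomal tethering complexes, at 142 ± 31.7 CPM and the sorting receptor gene Sort1 at 138 ± 23.5 CPM. Of 13 genes for docking and release, 9 were tested and none passed, with a median of 0.03. Rab3a, a small GTPase of secretory vesicles, averaged 1636 ± 40.0 CPM, Syt11, a synaptotagmin, 386 ± 42.0 CPM, and Rph3a, which encodes the Rab3 effector rabphilin, 258 ± 49.3 CPM.

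Of 16 cargo genes, all had reads and 13 were tested, with a median log2 ratio of 0.23 beside -0.03 for all tested genes. 1 passed, Cck, the precursor of cholecystokinin, with 669 reads in replicate 1 and 443 in replicate 2 (758 ± 149 CPM, log2 0.40, SE 0.09, adjusted p = 0.000701 in the exact test). Its direction was that of Chga. Over all tested genes 1.99% were called in either direction and 0.733% higher in replicate 1. Cck had more reads than most tested genes, whose median was 48.1 CPM, so these shares do not stand for genes of like depth. Whether Cck and Chga differed for a shared reason was not tested. Gnas, whose locus encodes a G protein subunit and also the granin-like protein NESP55, had the most reads at 1942 ± 43.4 CPM, summed over all of its products. Penk, the precursor of enkephalins, averaged 213 ± 26.0 CPM (log2 0.25, adjusted p = 0.633 in the exact test).

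The labelled tissue was set against markers of the cells it should hold and of endocrine tissues rich in granules. All 4 astrocyte markers summed to 3261 CPM in replicate 1 and 3532 CPM in replicate 2, and the 3 microglial markers to 200 and 208 CPM. Of 7 pituitary genes (Gh, Prl, Pomc, Cga, Tshb, Lhb, Fshb), 6 had no read in either library and the sum was 0 and 1 reads. Markers of adrenal chromaffin cells, the cells in which granins were first described, summed to 2 and 1 reads, with Dbh at 0. Hypothalamic peptide genes summed to 4 and 9 reads, with Oxt and Hcrt at 0.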

How the data were processed

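For both libraries the authors deposited tables of long-read counts, whole numbers with a row for each transcript model, and the exons of every model. Exon numbers, model lengths and exon positions, the other values used, are as deposited. Per the deposited notes the assembly was mm10 and the annotation GENCODE M21, and the deposited annotation of models names TALON as its source. Sources used here do not state the aligner, versions, filters, platform or read orientation, so strand is uncertain.

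Counts of a gene are sums over its models; spike-in models (1.56% of reads in replicate 1, 1.32% in replicate 2) and loci classed as antisense or intergenic did not enter. Unannotated models were matched between libraries by intron chain, and single-exon ones pooled by gene. No molecular identifiers are stated, so intervals (95%, exact Poisson for levels, Wilson for shares) and the limit of 3 counts cover counting error only. Means carry the SD over both libraries. An exact binomial test was applied to genes with 20 or more reads over both libraries, and Fisher's exact test to major transcript shares and cassette exons (5% to 95% inclusion) with 20 reads in each library. All tests were two-sided and adjusted by Benjamini and Hochberg with a threshold of 0.05 (scipy 1.17.1). They were also run on simulated counts, with and without planted changes, in which the only random variation was counting error. Such counts cannot show how the tests behave where libraries vary by more than that. TMM factors came from edgeR 4.0.16 and size factors from DESeq2 1.42.0 (R 4.3.3). Other scalings, read minimums, pseudocounts and subsets of models were tried as alternatives.

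The members, gene lists and tests were chosen with earlier results of these data known. Named were all members, the 3 genes of each pathway list with the highest mean CPM and any that passed, annotated transcripts with at least 5% of a gene's reads, unannotated chains with at least 3% and 5 reads in each library, and unannotated junctions with 5 reads in each. Not every transcript that the rule takes is printed.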

Additional observations from a re-analysis of the deposited data

Results flagged for a closer look

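Reads on models opposite the granule genes, which enter no gene count, exceeded 3 reads in both libraries for 5 of the 10 genes. Opposite Cpe there were 40 reads in replicate 1 and 109 in replicate 2. Opposite Scg5 there were 29 and 71, opposite Pcsk2 14 and 62, opposite Ptprn 4 and 11, and opposite Scg3 5 and 5. Pcsk2 had the most for its level, 6.80 antisense reads per 100 sense reads in replicate 1 and 31.0 in replicate 2. Over all members the antisense reads numbered 93 and 268, or 1.39 and 4.59 per 100 sense reads. Cpe and Pcsk1n weigh most in these pooled values, since they hold most of the sense reads. Scg5 had 4.92 and 13.3 per 100 sense reads and Scg3 had 3.91 and 3.79, so values above the pooled ones were not confined to Pcsk2. Of the antisense reads opposite all members, 92 and 262 lay on single-exon models, and Chga had 0 in both libraries. For 8 of the 10 genes replicate 1 had fewer than replicate 2, and its antisense share over all mouse reads was also lower, 8.87% in replicate 1 against 16.9% in replicate 2. Those shares are of all mouse reads and not per 100 sense reads. Neither count of genes was made over all annotated genes, so neither can be called particular to the members. The 1 annotated antisense neighbour, Pcsk2os1, had 3 reads in each library. Since the orientation of reads is not given in the sources used here, the strand of these reads is uncertain.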

How the results depend on the processing

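No paired analysis was possible because there is 1 group. With 2 libraries the SD rests on 1 difference, the tests cover counting error only, and read ends inside merged models are not shown; the causes of the changes below were not tested. With TMM scaling and with DESeq2 size factors 2 members were called in place of 1, Scg2 being the added one. The number of called genes was 55 with annotated transcripts only and 78 with multi-exon models only, in place of 182, where 6508 and 7933 genes were tested in place of 9143. The summed level of the members was 7428 CPM with all mouse reads as the total, 10371 CPM with annotated transcripts only and 9614 CPM with multi-exon models only, and 8596 to 8645 CPM leaving out either replicate. With annotated transcripts only, 1 gene and 0 members had a different major transcript share (in place of 10 and 1), of 3 members that could be tested (Scg2, Scg3 and Vgf); with incomplete splice matches and genomic models left out, 0 members did. The mean level of Ptprn with annotated transcripts only was 208 CPM in place of 539 CPM. With at least 10 reads in each library, and with annotated transcripts only, 0 cassette exons were called in place of 1. Among called genes the share higher in replicate 1 was 36.8% in the main scaling, 48.4% with TMM and 63.0% with DESeq2 size factors. Chga passed, higher in replicate 1, under every alternative run for its ratio, at log2 ratios of 0.95 to 1.03.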
